A study of Mus musculus with 8 samples.

Results

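The interferon and antigen presentation genes described here are 31 genes taken by symbol from the annotation of the arrays: nucleic acid sensors, transcription factors, antiviral effectors, the ISG15 system, a chemokine and the class I pathway. Of these, 29 have at least 1 probe set that carries their symbol alone, of 18193 genes on the array named in this way. Isg15 has only a probe set shared with Gm9706, and Ifi44 was not analysed here. Mixed cells from cerebral hemispheres of ICR mouse embryos (15 days) were grown for 5 days in medium with 10% serum, and oligodendrocyte precursors were then kept in serum-free medium for 48 hr at 31.5 °C (4 arrays) or at 37 °C (4 arrays). ICR is an outbred stock, and apart from temperature the labels give both groups the same handling, with no altered gene and no added interferon. The labels mention 3 mice in a group and leave unsaid how the 4 replicates came about, so each error and p measures the spread between these samples, which may be technical.

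Interferons are secreted proteins that cells release when they sense foreign or misplaced nucleic acids. Type I interferon binds a receptor whose kinases activate transcription factors, STAT2 and IRF9 among them, which switch on antiviral genes through a DNA element called the interferon-stimulated response element. Interferon gamma acts through a separate receptor and raises the genes that cut proteins, pump the peptides into the endoplasmic reticulum and display them on class I molecules at the cell surface. In the brain, microglia, astrocytes and oligodendrocyte lineage cells can all respond to interferons.

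In a fit of temperature alone Rsad2, an antiviral enzyme gene, rose at 31.5 °C and Gbp2, the gene of an interferon-induced GTPase, fell. The other 23 of the 25 members that could be tested did not pass. In a fit that also took account of the replicate number, described below, 20 of the 25 did not pass. Signals are MAS5 values (a summary of brightness per probe set) after scaling of all arrays to a common trimmed mean, given for replicates 1 to 4 in order or as mean ± SD (n = 4). Changes are log2 differences, 31.5 °C minus 37 °C, with their standard error. A change was called at a Benjamini-Hochberg adjusted p under 0.05 in limma over all 11525 genes tested. Genes entered the test at a mean signal of at least 36.3, which Ifit1, Mx1, Mx2 and Oas2 did not reach. The 1 member higher and 1 lower (4.0% each of 25) stand beside 7.64% of all genes higher and 7.77% lower, or 15.4% called in all. Of the genes called, 49.6% were higher, and 62.6% with median scaling. The median change of the 25 members was 0.12, against -0.0017 for all genes. Before scaling the arrays had trimmed means of 189 to 238 at 31.5 °C, against 132 to 248 at 37 °C, where replicate 4 was the dimmest.

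The temperatures share their replicate numbers, and arrays of the same number deviated together from their group means. In a fit with the number as a block, 3 members rose (Rsad2, Irf7 and Ifit3) and 2 fell (Gbp2 and Ifi35), or 12% and 8.0% of 25, where 15.0% of all genes rose and 15.8% fell (30.8% in all). The share of members called was below that of all genes in each direction and in both fits, a difference that was not tested. The members were dimmer, with a median signal of 132 against 315 for all genes tested. Their median absolute change was 0.17, against 0.18 for all genes. Among the 25 tested members, groups did not overlap for 1 higher and 1 lower at 31.5 °C, where 11.7% and 10.5% of all genes did so (22.2% in all). Among 40 member probe sets tested singly, 2 rose and 1 fell, where 6.46% and 6.76% of all probe sets tested did so (13.2% in all), and with the block 4 rose and 3 fell, where 12.4% and 13.9% did so. In 5 tested members (Irf7, Rsad2, Ifit3, Usp18 and Tap2) the 31.5 °C array was the higher one in all 4 pairs, and in 3 (Gbp2, Ifi35 and Cxcl10) the lower one, where 25.3% and 25.1% of all genes did so.

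The median change of the members was 0.11, 0.16, -0.08 and -0.02 within the pairs numbered 1 to 4. It lay above 0 in pairs 1 and 2 and below 0 in pairs 3 and 4. Single arrays moved it: it was 0.0080 with replicate 1 at 31.5 °C left out, and -0.0073 with replicate 2 at 37 °C left out.

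**Figure D1:**
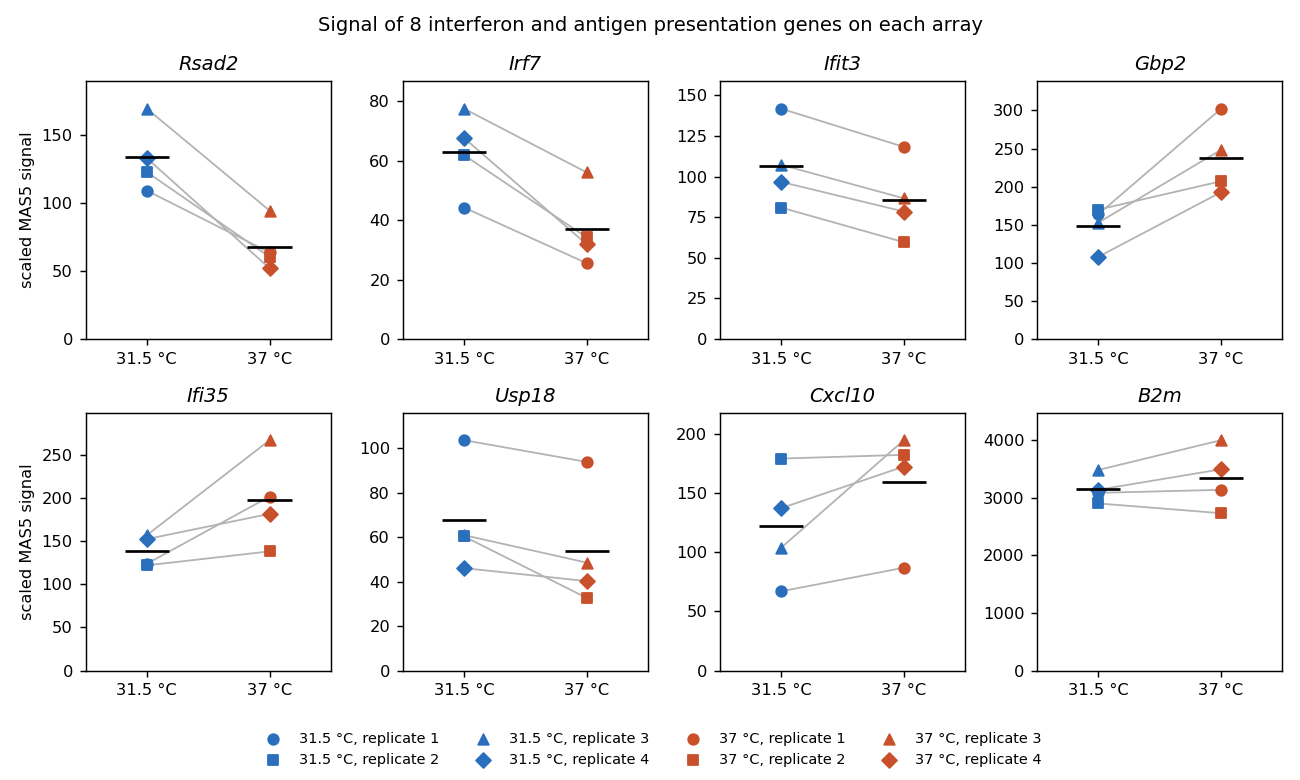
Scaled MAS5 signal of 8 members on each of the 8 arrays, with 31.5 °C on the left and 37 °C on the right of each panel, lines joining arrays of the same replicate number and bars at the mean of 4 arrays. Rsad2 lies at 109 to 169 at 31.5 °C, against 52.0 to 94.5 at 37 °C, Irf7 and Ifit3 are higher at 31.5 °C within every pair, and Gbp2 and Ifi35 are lower within every pair.

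Nucleic acid sensors did not pass in either fit. Ifih1, which encodes the sensor MDA5 for long double-stranded RNA, had 45.7, 50.4, 45.4 and 40.5 at 31.5 °C, against 42.2, 33.1, 32.1 and 51.1 at 37 °C. Its groups overlapped (0.22 ± 0.15, adjusted p = 0.37). Ddx58, which encodes the RNA sensor RIG-I, had 114, 93.1, 139 and 144 at 31.5 °C, against 116, 90.7, 133 and 146 at 37 °C. Within each replicate number its values were close, while the numbers differed (0.02 ± 0.18, adjusted p = 0.968).

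Among the transcription factors, Irf7 stood apart. Irf7 encodes a factor that amplifies type I interferon production and is itself interferon-induced. It had 44.3, 61.9, 77.6 and 67.7 at 31.5 °C, against 25.5, 34.2, 56.1 and 31.9 at 37 °C. The 31.5 °C array was higher in each pair, by 0.79, 0.86, 0.47 and 1.09, but the groups overlapped because replicate 3 at 37 °C lay above replicate 1 at 31.5 °C. Its change of 0.80 passed with the block (SE 0.11, adjusted p = 0.00452) and not without it (SE 0.25, adjusted p = 0.0612). Without the block it passed with median scaling (0.89, adjusted p = 0.0368) and quantile scaling (adjusted p = 0.0412). It also passed when replicate 1 at 31.5 °C (adjusted p = 0.0489) or replicate 3 at 37 °C (adjusted p = 0.0169) was left out. The other factors did not pass. Stat2 had 75.7 ± 6.24 at 31.5 °C, against 73.8 ± 4.86 at 37 °C (0.04 ± 0.09, adjusted p = 0.822), and its partner Irf9 had 160 ± 18 at 31.5 °C, against 159 ± 20.5 at 37 °C (adjusted p = 0.973). Irf1, a factor induced by interferon gamma that drives class I genes, had 248, 249, 251 and 196 at 31.5 °C, against 229, 235, 304 and 258 at 37 °C (-0.12 ± 0.12, adjusted p = 0.557).

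Rsad2 passed under every alternative that could test it. It encodes viperin, an enzyme that makes a nucleotide analog which stops viral RNA synthesis. Its brightest probe set (1436058_at) had 109, 123, 169 and 133 at 31.5 °C, against 63.7, 60.5, 94.5 and 52.0 at 37 °C. All 4 arrays at 31.5 °C lay above all 4 at 37 °C, and the change was 1.0 ± 0.20, or 2.0-fold (adjusted p = 0.0132, and 0.00272 with the block). Leaving out any 1 array gave changes between 0.88 and 1.17, and over 25 alternatives the adjusted p reached at most 0.039. The other probe sets of Rsad2 gave the same order. Probe set 1421008_at had 42.9, 64.5, 55.4 and 45.9 at 31.5 °C, against 25.2, 24.8, 32.8 and 28.0 at 37 °C (adjusted p = 0.00734 over all probe sets tested). Probe set 1421009_at, below the filter, had 35.0, 30, 49.0 and 53.6 at 31.5 °C, against 17.9, 22.7, 23.9 and 19.2 at 37 °C, again without overlap. Arrays measure a culture as a whole, so fewer cells of a type and less RNA per cell cannot be told apart for this or any later gene.

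IFIT proteins bind viral RNA that lacks the cap marks of the host. Ifit3 had 142, 80.9, 107 and 96.7 at 31.5 °C, against 118, 59.6, 86.6 and 78.5 at 37 °C. The groups overlapped widely, yet the pairs differed by 0.26, 0.44, 0.31 and 0.30, all in 1 direction. Its change of 0.33 passed with the block (SE 0.06, adjusted p = 0.0138) and not without it (SE 0.23, adjusted p = 0.365). Ifit2 had 180 ± 24.5 at 31.5 °C, against 157 ± 35.1 at 37 °C (0.21 ± 0.16, adjusted p = 0.417). Ifit1, below the filter, had 28.9, 28.4, 28.2 and 51.6 at 31.5 °C, against 20.0, 20.9, 31.8 and 33.6 at 37 °C, and its groups overlapped.

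Guanylate-binding proteins are GTPases that gather on the vacuoles of intracellular pathogens and respond strongly to interferon gamma. Gbp2 (1418240_at) had 164, 170, 153 and 108 at 31.5 °C, against 302, 207, 248 and 193 at 37 °C. Every array at 31.5 °C lay below every array at 37 °C (-0.68 ± 0.18, adjusted p = 0.0381, and 0.00826 with the block). The call was lost in 11 of 19 alternatives without the block, among them median scaling (-0.59, adjusted p = 0.155). It was also lost with 1 array left out, whichever it was except replicate 4 at 37 °C (adjusted p up to 0.081). With the block it passed whichever pair was left out. The second probe set of Gbp2, 1435906_x_at, had 150, 106, 100 and 91.9 at 31.5 °C, against 340, 202, 291 and 102 at 37 °C. It was lower at 31.5 °C in each pair and overlapped between the groups (-0.95, adjusted p = 0.109 over all probe sets, and 0.0261 with the block). Gbp3 had 155 ± 22.9 at 31.5 °C, against 145 ± 26.3 at 37 °C (0.10 ± 0.16, adjusted p = 0.703). Genes of this family are close in sequence, so a probe set ending in _x_at can bind relatives.

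Ifi35, whose protein pairs with NMI in the cytoplasm, had 124, 122, 157 and 153 at 31.5 °C, against 202, 138, 268 and 182 at 37 °C on its brightest probe set. It was lower at 31.5 °C in each pair, and only replicate 2 at 37 °C lay within the range of the 31.5 °C arrays. The change of -0.48 passed with the block (SE 0.12, adjusted p = 0.0289) and not without it (SE 0.19, adjusted p = 0.126). With the block it was lost when pair 1 or pair 3 was left out, and without the block it passed when replicate 2 at 37 °C was left out (adjusted p = 0.0495). Its other probe sets, 1424617_at (-0.57) and 1459151_x_at (-0.30), did not pass in either fit.

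The remaining antiviral effectors did not pass. Ifitm3, which stops viruses from fusing with cell membranes, had 2640, 2061, 2067 and 2533 at 31.5 °C, against 2558, 2002, 2834 and 2293 at 37 °C (-0.06 ± 0.13, adjusted p = 0.814). Bst2, which encodes tetherin, had 129 ± 22.3 at 31.5 °C, against 135 ± 17.2 at 37 °C (adjusted p = 0.797). Oasl2, a relative of the oligoadenylate synthetases, had 50.6 ± 12.3 at 31.5 °C, against 46.3 ± 17.8 at 37 °C (adjusted p = 0.731). The signs of Bst2, Ifitm3, B2m and Psmb8 turned under median or quantile scaling. Signals under a floor of 9.80 were raised to it before log2 was taken, and of the dim antiviral genes Mx1 lay under it on 3 arrays, Mx2 on 6 and Oas2 on 1. Mx1 had 5.83, 13.8, 16.3 and 13 at 31.5 °C, against 1.27, 1.83, 12.1 and 17.8 at 37 °C, and Mx2 had 17.2, 6.33, 42.3 and 5.23 at 31.5 °C, against 3.56, 4.10, 7.17 and 8.49 at 37 °C. Oas2, an oligoadenylate synthetase gene below the filter, had 21.7, 6.85, 28.1 and 25.8 at 31.5 °C, against 39.3, 28.6, 32.0 and 35.7 at 37 °C. All of its 31.5 °C values lay below all of its 37 °C values, in each pair as well. With dim genes tested too its change, in which replicate 2 at 31.5 °C stands at the floor, was -0.76 (adjusted p = 0.252).

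ISG15 is a ubiquitin-like tag that enzymes attach to proteins and remove again. The probe set of Isg15 and Gm9706 had 77.7, 91.9, 83.9 and 104 at 31.5 °C, against 46.6, 57.2, 83.2 and 81.3 at 37 °C. The 31.5 °C array was higher in each pair, by only 0.01 in pair 3, and 2 arrays at 37 °C lay within the 31.5 °C range (0.45, adjusted p = 0.167 over all probe sets, and 0.0554 with the block). Usp18, which removes the tag and dampens the type I receptor, had 104, 60.3, 60.8 and 46.0 at 31.5 °C, against 93.8, 32.6, 48.5 and 40.2 at 37 °C. Replicate 1 was the highest at either temperature (0.39 ± 0.34, adjusted p = 0.486, and 0.0685 with the block). With the block and median or quantile scaling together, settings added after seeing the data, its adjusted p was 0.0225 and 0.0315.

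Cxcl10, a chemokine that draws T cells, had 67.1, 179, 104 and 137 at 31.5 °C, against 87.0, 183, 195 and 173 at 37 °C. It was lower at 31.5 °C in each pair, by little in pair 2, and the groups overlapped (-0.41 ± 0.34, adjusted p = 0.456, and 0.0695 with the block).

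**Figure D2:**
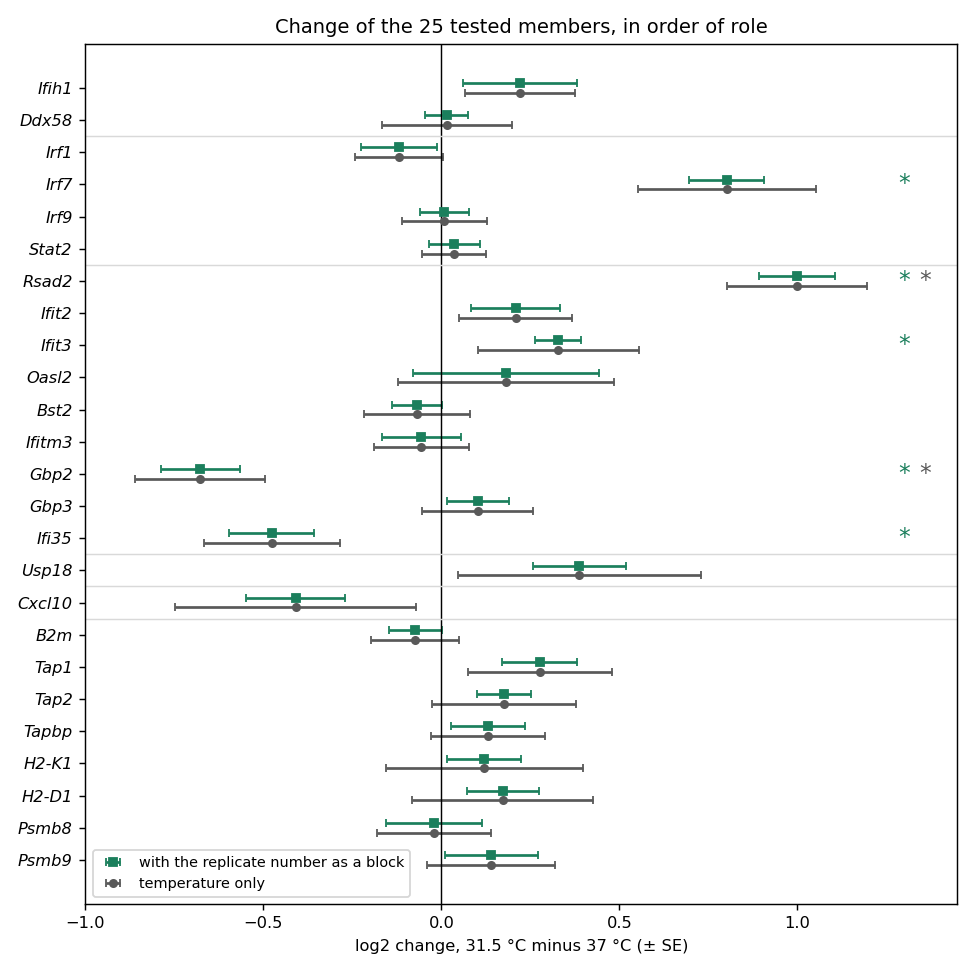
Log2 change (31.5 °C minus 37 °C, ± SE) of the 25 tested members in order of role, from the fit with the replicate number as a block (squares) and from temperature alone (circles). Stars mark adjusted p under 0.05, left for the block and right for temperature alone: Irf7, Rsad2, Ifit3, Gbp2 and Ifi35 pass with the block, and Rsad2 and Gbp2 also without it.

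Promoters of the members were read for the elements through which interferons act. RefSeq promoters (GRCm38.p6, 250 bases before to 50 after the start) were given for 26 of the 31 members, 31 promoters in all. They were searched on both strands for the core of the interferon-stimulated response element, GAAA and GAAA with any 2 bases between them, and for the core of the gamma-activated site, TTCNNNGAA. The response element core was found in 13 of the 31 member promoters (41.9%), against 3.44% of all 32851 promoters. The gamma-activated core was found in 6 of them (19.4%), against 8.3% of all promoters. The members were chosen as interferon and antigen presentation genes, so these larger shares may come with that choice and are no result of the arrays. A match describes letters in a window and says nothing of what binds there. The promoters of Rsad2 (chr12:26456403-26456702, minus strand), Gbp2 (chr3:142620413-142620712, plus strand) and Ifit3 (chr19:34583279-34583578, plus strand) are shown because these members passed in at least 1 fit and hold the response element core. They are written in the direction of the gene with the core in capitals, which lies on the opposite strand in all of them and so reads as its reverse complement.
Rsad2: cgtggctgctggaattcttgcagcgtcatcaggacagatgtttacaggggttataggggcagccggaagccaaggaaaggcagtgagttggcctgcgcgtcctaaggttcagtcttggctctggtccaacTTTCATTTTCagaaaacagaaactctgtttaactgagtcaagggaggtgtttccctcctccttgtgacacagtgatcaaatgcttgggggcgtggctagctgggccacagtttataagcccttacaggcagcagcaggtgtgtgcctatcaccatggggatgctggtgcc
Gbp2: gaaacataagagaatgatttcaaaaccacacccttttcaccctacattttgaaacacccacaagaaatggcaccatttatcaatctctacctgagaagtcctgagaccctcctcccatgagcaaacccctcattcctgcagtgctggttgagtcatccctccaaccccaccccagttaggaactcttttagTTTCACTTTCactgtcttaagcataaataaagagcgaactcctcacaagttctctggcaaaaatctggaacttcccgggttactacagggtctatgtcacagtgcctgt
Ifit3: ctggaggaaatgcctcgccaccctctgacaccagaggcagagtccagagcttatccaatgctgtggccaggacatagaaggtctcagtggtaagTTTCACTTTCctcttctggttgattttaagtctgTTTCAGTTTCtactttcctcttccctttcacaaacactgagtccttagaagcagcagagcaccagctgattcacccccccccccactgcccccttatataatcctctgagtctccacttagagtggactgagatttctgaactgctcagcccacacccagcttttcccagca

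The core begins at position -120 from the start in Rsad2, at -59 in Gbp2 and at -156 and -122 in Ifit3. Irf7, which rose with the block, holds neither core in its window, and Ifi35, which fell with the block, holds only the gamma-activated core, at position 8. The response element core was also present in members that passed in neither fit. Some of its sites are compared in the orientation that reads GAAA first, with the matched bases in capitals and 6 flanking bases on each side.
Rsad2: ttttctGAAAATGAAAgttgga
Gbp2: gacagtGAAAGTGAAActaaaa
Ifit3, second site: aaagtaGAAACTGAAAcagact
Isg15: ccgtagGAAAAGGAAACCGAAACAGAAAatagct
Bst2: ttccagGAAAATGAAACTGAAAggctgc
B2m: gaacatGAAACTGAAAatggga
Stat2: ggaaagGAAACTGAAAccaggg
Isg15 holds 3 overlapping matches and Bst2 holds 2. The core letters of B2m and Stat2 are those of the second site of Ifit3, while their changes were -0.07 and 0.04.

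Class I antigen presentation genes did not pass in limma in either fit (0 of 8 tested). Of all genes tested 15.4% were called without the block and 30.8% with it. At an unadjusted p under 0.05, 0 of the 8 were found without the block and 1, higher, with it. Of all 11525 genes, 1803 were higher and 1781 lower at that p without the block, and 2487 and 2587 with it. B2m, the light chain of class I molecules, had 3088, 2903, 3486 and 3142 at 31.5 °C, against 3140, 2734, 4003 and 3497 at 37 °C (-0.07 ± 0.12, adjusted p = 0.734). Its other probe set gave -0.20 (adjusted p = 0.516 over all probe sets). Of the peptide transporter subunits, Tap1 had 89.7, 51.5, 75.2 and 71.5 at 31.5 °C, against 79.3, 51.5, 59.7 and 47.2 at 37 °C (0.28 ± 0.20, adjusted p = 0.393). Tap2 was higher at 31.5 °C in each pair, by 0.10, 0.19, 0.05 and 0.36 (adjusted p = 0.603, and 0.127 with the block). Tapbp, which encodes the peptide loading factor tapasin, had 843 ± 113 at 31.5 °C, against 776 ± 157 at 37 °C (0.13 ± 0.16, adjusted p = 0.627).

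Psmb8 and Psmb9 encode catalytic subunits that are exchanged into the proteasome under interferon gamma. Psmb8 had 80.8, 75.6, 88.5 and 67.0 at 31.5 °C, against 62.6, 68.4, 99.0 and 90.6 at 37 °C (-0.02 ± 0.16, adjusted p = 0.95). Psmb9 had 62.9 ± 10.9 at 31.5 °C, against 57.4 ± 13.1 at 37 °C (0.14 ± 0.18, adjusted p = 0.645). Their constitutive counterparts Psmb5, Psmb6 and Psmb7 had changes of 0.22, 0.30 and 0.20. Of these Psmb6 alone passed, with the block (adjusted p = 0.0255) and not without it (adjusted p = 0.0532).

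The class I heavy chains differed more between replicate numbers than between temperatures. H2-K1 (1451931_x_at) had 2551, 1169, 1478 and 1104 at 31.5 °C, against 1891, 1049, 1419 and 1239 at 37 °C (0.12 ± 0.28, adjusted p = 0.808). H2-D1 (1425545_x_at) had 3811, 1982, 2202 and 1913 at 31.5 °C, against 2882, 1561, 2346 and 1869 at 37 °C (0.17 ± 0.25, adjusted p = 0.693). Replicate 1 was the highest of its temperature for both genes, at 31.5 °C as at 37 °C. H2-K1 has 4 probe sets of its own and H2-D1 has 9, and each has 2 more that it shares with other symbols. Class I heavy chain genes are close in sequence and most of these probe sets end in _x_at, so signal from related genes cannot be separated.

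On 3 dim H2-D1 probe sets, named after their values were seen, replicate 1 stood above the other numbers. Probe set 1425614_x_at had 82.5, 5.19, 6.29 and 17.6 at 31.5 °C, against 68.4, 4.36, 2.73 and 3.68 at 37 °C. Probe set 1452544_x_at had 101, 4.05, 4.41 and 4.34 at 31.5 °C, against 86.6, 5.23, 16.5 and 37.3 at 37 °C. Probe set 1427651_x_at had 60.9, 1.66, 6.01 and 21.9 at 31.5 °C, against 63.0, 21.5, 13.8 and 11.8 at 37 °C. On each of them both arrays of replicate 1 lay above the other 6. The labels give no genotype or litter for any array, and what sets replicate 1 apart was not tested.

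**Figure D3:**
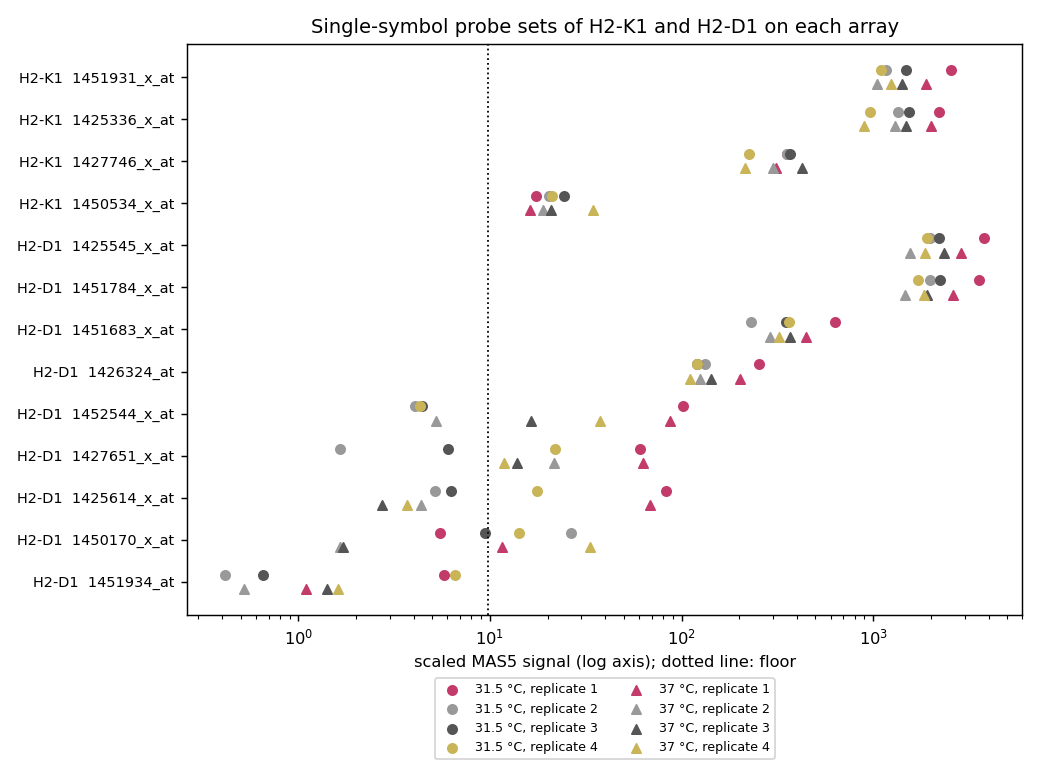
Scaled MAS5 signal (log axis) of the 13 probe sets that carry the symbol H2-K1 or H2-D1 alone, with circles for 31.5 °C, triangles for 37 °C and a colour for each replicate number; the dotted line is the floor of 9.80. On 1425614_x_at, 1427651_x_at and 1452544_x_at both arrays of replicate 1 stand to the right of the other 6.

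For each gene the spread of the log2 signals over the 8 arrays was divided into a part between temperatures, a part between replicate numbers and a remainder. In the 25 tested members the median share was 8.09% between temperatures and 69.2% between numbers. Over all genes tested these medians were 26.2% and 46.4%. The share between numbers was the larger one in 20 of the 25 members (80%), and in 61.6% of all genes. It reached 99.4% for Ddx58, while Rsad2 had 76.3% of its spread between temperatures, Gbp2 63.7% and Irf7 55.1%. Among the 9 antiviral effectors tested, number 2 was the lowest for 7, number 1 the highest for 4 and number 3 for 5. Among the 8 class I pathway genes, number 2 was the lowest for 5, number 1 the highest for 4 and number 3 for 3. The order of the numbers was not counted over all genes, so it cannot be called particular to the members. Differences between the members and all genes in the shares of the spread were not tested.

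**Figure D4:**
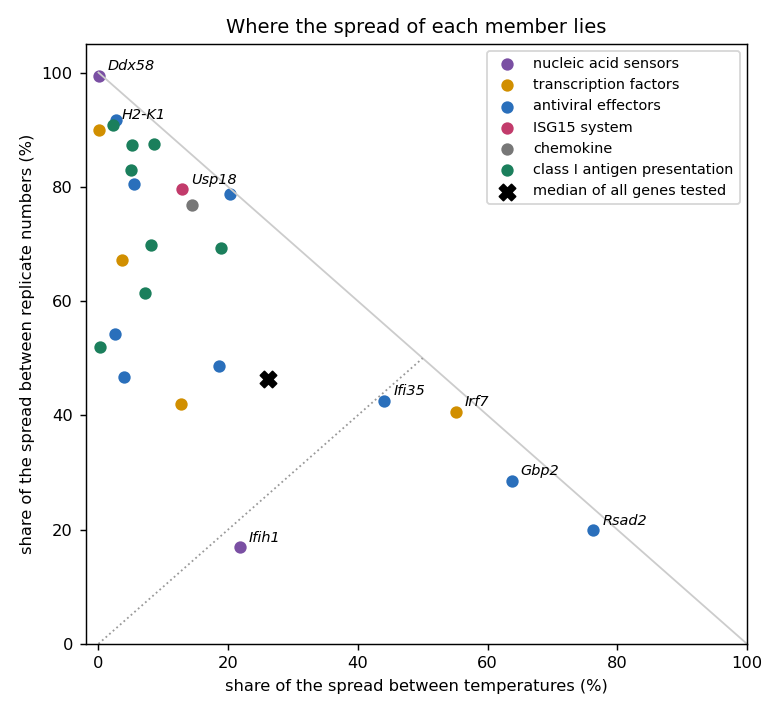
Share of the sum of squares of the log2 signal over 8 arrays that lies between temperatures (horizontal, %) and between replicate numbers (vertical, %), 1 point for each tested member, coloured by role; above the dotted line the share between numbers is the larger. For 20 of 25 members it is the larger, and the cross marks the medians of all genes tested (26.2% and 46.4%).

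Other genes of these pathways were taken from lists of 103 genes. Of the 68 tested, 2 rose and 6 fell (2.94% and 8.82%), and with the block 8 rose and 12 fell (11.8% and 17.6%). Over all genes the shares were 7.64% and 7.77%, and with the block 15.0% and 15.8%. No difference of the lists from all genes was tested. Their median change was 0.02. Among 9 sensors and adaptors 0 rose and 3 fell: the gene of a receptor for double-stranded RNA in endosomes, that of its adaptor, and that of a factor activated downstream. With the block 0 rose and 4 fell, the other being Tmem173 (named after its values were seen), the gene of the adaptor STING (adjusted p = 0.0259, against 0.584 without it). Ticam1, the adaptor gene, had 48.4, 45.0, 52.5 and 57.0 at 31.5 °C, against 71.4, 68.6, 92.1 and 89.8 at 37 °C. Its groups did not overlap (-0.66 ± 0.13, adjusted p = 0.0121), and it passed in 24 of 24 alternatives. Tlr3, the receptor gene, had 52.3, 42.5, 65.5 and 55.3 at 31.5 °C, against 83.8, 65.8, 90.1 and 76.5 at 37 °C, again without overlap (-0.56 ± 0.15, adjusted p = 0.0353). With 1 array left out from among replicates 1, 2 and 4 at 31.5 °C or replicates 1, 3 and 4 at 37 °C, Tlr3 no longer passed (adjusted p up to 0.0825). Its call was lost in 11 of 17 alternatives without the block, which include median scaling (adjusted p = 0.123), quantile scaling (0.0503), no filter (0.0774), the mean of probe sets (0.188) and an intensity trend (0.0571). Irf3, the factor that starts interferon transcription, had 309, 279, 333 and 275 at 31.5 °C, against 382, 369, 428 and 406 at 37 °C (-0.41 ± 0.09, adjusted p = 0.022). It passed in 21 of 26 alternatives, not with median scaling (adjusted p = 0.211), the mean of probe sets (0.0533) or without _x_at and _s_at probe sets (adjusted p = 0.302). Irf3 no longer passed with 1 array left out from among replicate 2 at 31.5 °C or replicate 4 at 37 °C (adjusted p up to 0.0612). The fits with 1 array left out had no block. Ticam1, Tlr3 and Irf3 passed with the block whichever pair was left out (adjusted p up to 0.0364).

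Of the list of ligands, receptors and kinases 8 genes were tested, and no ligand was among them. Ifnb1, Ifng and Ifna4 lay below the filter, with signals under the floor on 3, 7 and 8 of the 8 arrays. The 8 tested genes gave 0 calls in limma without the block, though at an unadjusted p under 0.05 there was 1 higher and 1 lower. With the block 1 rose. Ifnar1, a chain of the type I receptor, had 415 ± 31.3 at 31.5 °C, against 356 ± 29.1 at 37 °C (0.22 ± 0.09, adjusted p = 0.144, and 0.0425 with the block). The call with the block was lost whichever pair was left out (adjusted p of 0.078 to 0.134). The other chain, Ifnar2, had 0.06 (adjusted p = 0.737), the gamma receptor gene Ifngr1 -0.19 (adjusted p = 0.491) and the kinase gene Jak1 -0.02 (adjusted p = 0.904). Inhibitors of the pathway gave 0 calls of 6 in limma, with 2 lower at an unadjusted p under 0.05, and 2 fell with the block.

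Of 33 other interferon-induced genes 2 rose and 2 fell, and with the block 5 rose and 4 fell. Parp12, an antiviral ADP-ribosyltransferase gene, had 316, 239, 268 and 243 at 31.5 °C, against 203, 114, 202 and 154 at 37 °C, without overlap (0.69 ± 0.19, adjusted p = 0.0399). Parp12 no longer passed with 1 array left out from among replicates 1, 2, 3 and 4 at 31.5 °C or replicates 2 and 4 at 37 °C (adjusted p up to 0.1). Rtp4, an interferon-induced gene named after its values were seen as the other rise, had 184, 162, 250 and 149 at 31.5 °C, against 103, 81.5, 156 and 85.0 at 37 °C (0.83 ± 0.23, adjusted p = 0.0417). With 1 array left out from among replicates 1, 2 and 3 at 31.5 °C or replicates 1, 2 and 4 at 37 °C, Rtp4 no longer passed (adjusted p up to 0.104). Its groups overlapped through replicate 3 at 37 °C alone, the array that was also the highest at 37 °C for Irf7 and Rsad2. Gbp6, a relative of Gbp2, had 62.3, 58.5, 48.5 and 23.6 at 31.5 °C, against 143, 139, 116 and 81.7 at 37 °C, without overlap (-1.37 ± 0.31, adjusted p = 0.0216). Gbp6 no longer passed with 1 array left out from among replicate 3 at 31.5 °C or replicates 1 and 2 at 37 °C (adjusted p up to 0.0591). Herc6, which in mice encodes the main ligase for ISG15, had 49.4 ± 8.22 at 31.5 °C, against 78.0 ± 14.8 at 37 °C (-0.66 ± 0.16, adjusted p = 0.0287). With 1 array left out from among replicates 1, 2 and 4 at 31.5 °C or replicates 3 and 4 at 37 °C, Herc6 no longer passed (adjusted p up to 0.0653). Median scaling ended the calls of Parp12 (adjusted p = 0.0528) and Herc6 (0.0596), the mean of probe sets that of Rtp4 (0.107). With no filter none of these 4 passed (adjusted p of 0.0968 for Parp12, 0.107 for Rtp4, 0.0641 for Gbp6 and 0.0676 for Herc6). These losses were all in fits without the block. All 4 genes passed with the block whichever pair was left out (adjusted p up to 0.0492).

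Of 7 other class I pathway genes Calr alone passed without the block, and with it 1 rose and 2 fell. Calr encodes calreticulin, a chaperone that also serves glycoprotein folding at large, and had 3159, 2945, 3274 and 3594 at 31.5 °C, against 4025, 3848, 4543 and 4619 at 37 °C (-0.39 ± 0.10, adjusted p = 0.0293). Calr no longer passed with 1 array left out from among replicates 1, 2 and 3 at 31.5 °C or replicates 3 and 4 at 37 °C (adjusted p up to 0.0764). It also did not pass with median scaling (-0.30, adjusted p = 0.162). These fits had no block, and with the block Calr passed whichever pair was left out (adjusted p up to 0.0319). Of class II presentation genes 2 reached the filter and 0 passed in limma in either fit, with 0 at an unadjusted p under 0.05.

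**Figure D5:**
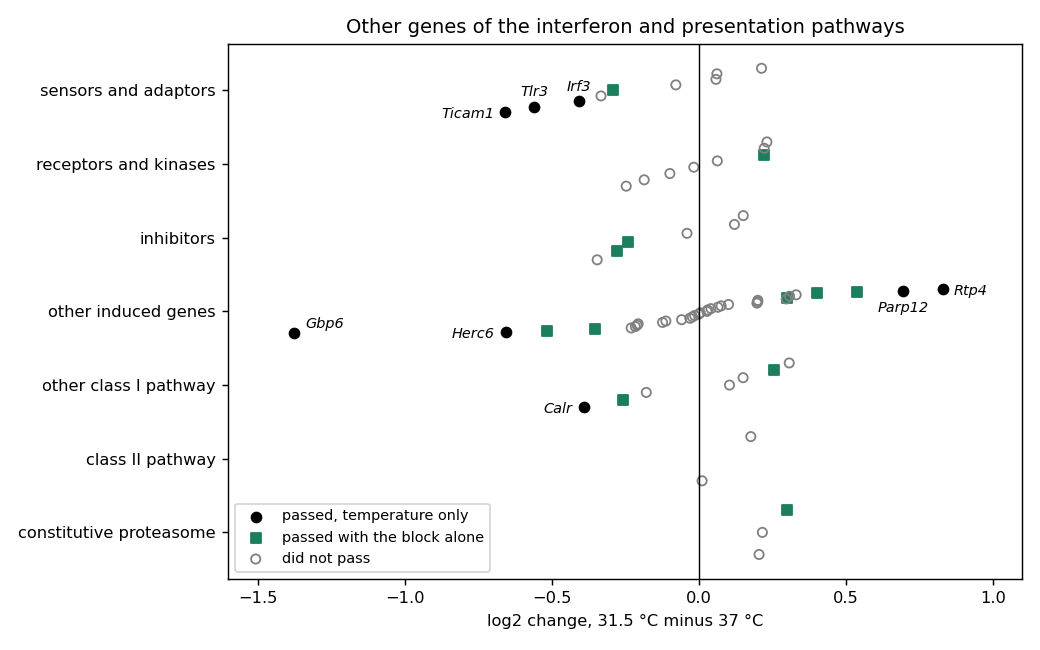
Log2 change (31.5 °C minus 37 °C) of the 68 tested genes of 7 pathway lists, 1 point per gene. Filled circles passed on temperature alone (2 higher, Parp12 and Rtp4, and 6 lower, among them Gbp6, Ticam1 and Tlr3), squares passed only with the replicate block, and open circles did not pass.

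Some markers of cell types that could carry these transcripts also differed between the temperatures. Of the 43 markers tested, 2.33% were called higher at 31.5 °C and 11.6% lower, beside 7.64% and 7.77% of all genes. The block fit called 4.65% of the markers higher and 48.8% lower, beside 15.0% and 15.8% of all genes. The separate lists below are small, and whether any of them departs from all genes was not tested. Of 15 microglia and macrophage markers tested 0 rose and 1 fell, Fcrls (-1.58 ± 0.44, adjusted p = 0.0426), and with the block 6 fell. The call of Fcrls was lost with no filter (adjusted p = 0.118) and with 1 array left out from among replicates 1, 2 and 3 at 31.5 °C or replicates 1, 3 and 4 at 37 °C (adjusted p up to 0.107). These fits had no block, and with the block Fcrls passed whichever pair was left out (adjusted p up to 0.017). P2ry12, below the filter and named after its values were seen, was higher at 31.5 °C in all 4 pairs. With dim genes tested too its change was 0.51 (adjusted p = 0.262, and 0.043 with the block). The signals of the 16 markers of this list summed to 10756 to 19122 at 31.5 °C, against 14066 to 25675 at 37 °C. Named after their values were seen, C1qb had 430 ± 166 at 31.5 °C, against 976 ± 406 at 37 °C (adjusted p = 0.0659, and 0.00117 with the block), and Csf1r had a change of 0.15 (adjusted p = 0.779). Of 8 astrocyte markers 1 fell, S100b (-1.67 ± 0.12, adjusted p = 0.000336), and with the block 6 fell, with sums of 9053 to 16195 at 31.5 °C, against 12306 to 21985 at 37 °C. Of 8 oligodendrocyte lineage markers tested the precursor marker Pdgfra rose (0.45 ± 0.12, adjusted p = 0.0373). Its call was lost with quantile scaling (adjusted p = 0.0531), no filter (0.0692), the mean of probe sets (0.0595) and with 1 array left out from among replicates 2, 3 and 4 at 31.5 °C or replicates 1, 2 and 4 at 37 °C (up to 0.0922). Here too the fits had no block, and Pdgfra passed with the block whichever pair was left out (adjusted p up to 0.0278). The myelin genes Mbp, Mag and Mobp fell, with changes of -0.80, -1.65 and -4.39, and the sums of the list were 16766 to 18825 at 31.5 °C, against 19602 to 24628 at 37 °C. The mean sum was 17768 at 31.5 °C, of which Mbp gave 5474, and 22468 at 37 °C, of which Mbp gave 9500. Cspg4, Olig1, Olig2 and Sox10 passed in neither fit, with changes of 0.20, -0.0022, -0.21 and -0.36. Of 7 neuron markers 0 passed in limma (1 lower at an unadjusted p under 0.05) and 3 fell with the block, with sums of 8256 to 9812 at 31.5 °C, against 8517 to 11623 at 37 °C. Of 4 endothelial and pericyte markers tested 0 passed in limma (0 at an unadjusted p under 0.05), and with the block 1 rose and 2 fell. Their sums over 8 genes were 317 to 1171 at 31.5 °C, against 292 to 971 at 37 °C. Of 7 lymphocyte and dendritic markers Itgax alone reached the filter and fell with the block (adjusted p = 0.013, against 0.198 without it), with sums of 138 to 479 at 31.5 °C, against 275 to 619 at 37 °C. Of all these markers 0 were listed at 0 on any array. Markers of oligodendrocyte precursors, microglia and astrocytes were all measured in these cultures, and their part in the changes of the members was not tested.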

How the data were processed

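The 8 arrays were grouped by temperature from their titles. The deposited intensity values are linear MAS5 signals, made by the authors per the submitters' processing notes, with no version or scaling target given. No detection calls were used. The trimmed means of these values, computed here (2% at each end), ran from 132 to 248. Precision is limited by having 4 arrays in a group.

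Control probe sets (64 of 45101) were left out. Each array was scaled to the mean trimmed mean (factors 0.848 to 1.60), values under the 25th percentile (9.80) were raised to it, and log2 was taken. Of 45037 probe sets, 34945 had 1 symbol, 932 several and 9160 were unnamed here. Each gene was represented by its single-symbol probe set of highest mean. Genes whose mean reached the median over probe sets (36.3), 11525 in all, were tested with limma 3.58.1 in R 4.3.3 (lmFit, eBayes, two-sided, Benjamini-Hochberg). All 22519 probe sets past the filter were also fitted singly. The fit without the block was tested on simulated data in which arrays were drawn independently of each other. The fit with the block was not tested in this way.

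Arrays of the same replicate number deviated together (correlations across genes of 0.541, 0.422, 0.497 and 0.614, against at most 0.0566 between numbers), so the numbers were taken to pair the arrays. All 31 members are accounted for. Of the pathway lists, up to 3 genes of smallest p past the threshold in each list were named, and Irf3, Ifnar1, Ifnar2, Ifngr1 and Jak1 in any case. Members, lists and tests were chosen with earlier results of these data known. Alternatives covered scaling, floor or a pseudocount of 1, filter, choice of probe set, trend, array weights, the block and leaving out arrays or pairs. Promoters and gene positions came from RefSeq tables (GRCm38.p6). Figures used matplotlib 3.10.9 in Python 3.11.15.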

Additional observations from a re-analysis of the deposited data

Results flagged for a closer look

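In 58 groups of 4 arrays (29 genes at 2 temperatures) 3 arrays lay far from the other 3 by Dixon's ratio on the log2 scale, and chance alone marks about 5% of such groups. Irf1 in replicate 4 at 31.5 °C was the lowest of its group with 196 (ratio 0.956). Ifit1 in replicate 4 at 31.5 °C was the highest with 51.6 (ratio 0.958). Cxcl10 in replicate 1 at 37 °C was the lowest with 87.0 (ratio 0.849), and replicate 1 was also the lowest at 31.5 °C with 67.1.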

How the results depend on the processing

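Rsad2 kept its call and direction in all 25 alternatives that could test it, and no called member changed sign. Without the block 1 member rose and 1 fell. With the replicate block, which the pairing of the numbers calls for, 3 rose and 2 fell, 3548 genes changed in place of 1775, and 8 other pathway genes rose and 12 fell in place of 2 and 6. The block changed no other call of a member than those of Irf7, Ifit3 and Ifi35. With median scaling 2 members rose and 0 fell, 725 genes changed (62.6% higher, against 49.6% before), and 1 other pathway gene rose and 2 fell. With quantile scaling 2 members rose and 0 fell. With no filter 0 members fell, and 0 other pathway genes rose and 3 fell. A filter at the 70th percentile removed Rsad2, leaving 0 members higher, a member median of -0.056 and 2 other pathway genes lower. With the mean of probe sets 0 members fell and 1 other pathway gene rose. Without _x_at and _s_at probe sets 3 other pathway genes fell, and with array weights 4 rose. With every probe set tested singly 2977 probe sets changed. With the block and median scaling, added after the data were seen, 4 members rose and 2 fell, 3755 genes changed, and 14 other pathway genes rose and 8 fell. With the block and quantile scaling, also added, 4 and 2 members, 3471 genes and 9 and 10 other pathway genes rose and fell. Leaving out each array gave 1 to 2 members higher, 0 to 1 lower, a member median of -0.0073 to 0.14, 872 to 1591 genes changed, and 0 to 3 other pathway genes higher and 2 to 5 lower. Leaving out each pair with the block gave 3 members higher, 1 to 2 lower, a median of 0.028 to 0.14, 2047 to 2422 genes, and 3 to 5 other pathway genes higher and 8 to 10 lower. The cause of these movements was not tested. Dim members (Ifit1, Mx1, Mx2 and Oas2) could be tested with no filter alone and did not pass. Signals near the floor limit what can be said of them.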

Other observations

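Across the whole array, 11 of 45037 probe sets (0.0244%) had both arrays of replicate 1 at least 2-fold above the highest of the other 6, and 3 of the 58 member probe sets were among them, all of H2-D1. For replicates 2, 3 and 4 the same count was 5, 1 and 38 probe sets, of which 0 were member probe sets. This count was made after the H2-D1 values had been seen, and what sets these arrays apart was not tested.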
